A study of Homo sapiens with 3 samples.

Results

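The genes of copper and platinum handling examined here were the copper transporter genes SLC31A1 and SLC31A2, the copper ATPase genes ATP7A and ATP7B, the copper chaperone genes ATOX1 and CCS, and the metallothionein genes MT2A, MT1X, MT1E and MT1G. They were taken by symbol, with every RefSeq row that carries one of the symbols, which gave 11 rows for 10 of the 18674 genes with a value in all libraries. The cells were A2780, a line from an undifferentiated ovarian tumour that is widely used as a platinum-sensitive model. One library came from cells with the empty pBABE retroviral vector, and 2 libraries came from cells made to express miR-181a, labelled p181a #1 and p181a #2 and named pool 1 and pool 2 below. These are described both as polyclonal pools and as clones in the labels, with no word on whether they are independent cultures, so p-values reflect no more than how far these libraries scatter, possibly for technical reasons. The promoter that drives the transgene is not given in the sources used here.

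Copper enters cells through CTR1, the product of SLC31A1, is handed on by small chaperones, and leaves through the ATPases ATP7A and ATP7B, which are the genes of Menkes and Wilson disease. Cisplatin and carboplatin have been linked to the same proteins as routes of uptake, sequestration and export. Metallothioneins are small cysteine-rich proteins that bind zinc, copper and platinum, and their genes are induced by metals through the transcription factor MTF1. By its title the series looks for targets of miR-181a, and the comparison of both pools with the vector library shows how these genes stood under that microRNA.

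The expressed microRNA is shown because it sets the letters that were looked for in the transcripts, with its seed (bases 2 to 8) in capitals. Its mature sequence is given by RefSeq, on GRCh38.p14.
hsa-miR-181a-5p: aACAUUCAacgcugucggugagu
The match of this seed in a transcript, TGAATGT, was in none of the 3 prime UTRs of the 10 genes, in the canonical transcripts of GENCODE on GRCh37, and neither was GAATGTA, the match with an A at its end. Of 10942 tested genes whose 3 prime UTR could be read, 21.0% held TGAATGT. The UTRs searched ran from 143 bases in MT2A to 4019 bases in SLC31A1. A single TGAATGT lay upstream of a 3 prime UTR among these genes, in ATP7A. That these letters are missing says nothing of other kinds of site.

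Of the metallothionein genes, MT2A and MT1X had coverage in all 3 libraries, and their promoters are shown because they carry metal response elements, the sites bound by MTF1. Capitals mark the letters TGCACNC or TGCGCNC on either strand, in windows from 250 bases before to 50 after the gene start, from RefSeq on GRCh38.p14, both on the plus strand.
MT2A, chr16:56608334-56608633: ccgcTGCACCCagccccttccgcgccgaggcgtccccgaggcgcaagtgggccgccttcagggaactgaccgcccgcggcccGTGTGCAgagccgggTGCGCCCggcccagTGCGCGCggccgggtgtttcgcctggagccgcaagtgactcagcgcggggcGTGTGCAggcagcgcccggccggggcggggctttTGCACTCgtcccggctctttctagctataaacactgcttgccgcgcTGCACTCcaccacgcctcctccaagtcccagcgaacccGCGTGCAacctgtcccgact
MT1X, chr16:56682220-56682519: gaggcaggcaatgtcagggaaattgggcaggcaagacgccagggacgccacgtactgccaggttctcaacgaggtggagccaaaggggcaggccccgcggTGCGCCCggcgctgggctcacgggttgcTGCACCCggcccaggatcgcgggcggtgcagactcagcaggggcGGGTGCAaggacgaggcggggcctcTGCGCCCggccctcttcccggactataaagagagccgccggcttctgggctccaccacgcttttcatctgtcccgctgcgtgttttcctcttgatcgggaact
The MT2A window held 8 matches and the MT1X window 4. Among other metallothionein genes with a window, MT1H held 8 matches, and MT1B and MT4 held 3 each. Of 35116 promoter windows, 0.601% held at least 4 matches, 0.0199% at least 8 and 29.6% at least 1. Among the copper genes with a window, ATOX1 and CCS held 2 matches each, the 3 windows of ATP7B held 0 to 2, and SLC31A1 and ATP7A held 0. Matches were counted wherever they began, overlaps included. Windows of SLC31A2, MT1E and MT1G were not used here.

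The vector library stands apart from the pools, and this bears on every gene that is lower in the pools. The values are the coverage of each RefSeq transcript, taken as a median over windows along it, so they are per length and can be set side by side between genes, but the deposited table holds no counts and the depth of the libraries is unknown. Summed coverage was between 719263 and 907092. Transcripts listed at 0 made up 12.8% of the vector library and 32.3% and 32.2% of the pools, and 62.9% of the 8822 transcripts at 0 in both pools were above 0 in the vector library. Where 2 transcripts of a gene had equal values above 1 in both pools, the vector library set them more than 1 log2 unit apart in 348 of 2326 pairs (15.0%). The reverse was found in 0 of 594 pairs for pool 1 and 0 of 638 pairs for pool 2. Of 10 epithelial and ovarian carcinoma markers, 7 were listed at 0 in both pools. Of these, KRT7, CDH1 and WT1 were at 0 in the vector library too, while EPCAM was 66.3, KRT19 17.4, PAX8 4.71 and MUC16 0.65 there. KRT8 was 27.0 in the vector library and 13.4 and 10.5 in the pools. The summed coverage of these markers was 189 in the vector library and 18.5 and 18.4 in the pools, and that of 6 fibroblast markers was 569, 1785 and 1453. COL3A1 held the largest part of the fibroblast sums (249, 986 and 717). Of the 5 fibroblast markers tested, 4 were higher in both pools and 1, COL1A1, was lower (7.41, 0 and 0.71). The summed coverage of 5 immune markers was 72.7, 2.76 and 2.44, and that of 6 hepatocyte and enterocyte markers 34.5, 0 and 0. ALB (17.1) and APOB (17.4) made up this last vector sum, and APOA1, TTR, VIL1 and FABP1 were at 0 in all 3 libraries. All 3 libraries are labelled as A2780, a cultured line, so the marker sums are not read as shares of cell types. What lies behind these marker differences, and their part in the results, was not tested.

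By limma, SLC31A2 fell and no other of the 10 genes passed the test. Tested were 8 of the 10, since MT1E and MT1G were below the filter on low values. One of 8 that fell compares with 21.7% of all 12552 genes tested, and none that rose with 1.00%. On the log2(coverage + 1) scale, SLC31A1, ATP7A, CCS and MT2A were higher in both pools than in the vector library (4 of 8, against 44.6% of all genes) and SLC31A2, ATP7B, ATOX1 and MT1X were lower in both (4 of 8, against 41.8%). The shares in each direction were thus near those of all genes. Differences of at least 1 log2 unit in both pools were found downward in 3 (27.3% of all genes) and upward in none (2.53% of all genes). The median log2 fold of the 8 was -0.37, beside 0.07 over all genes tested. Genes with a mean coverage above 50 had a median log2 fold of 0.55 in pool 1 and 0.21 in pool 2, an offset that the shift by genes above 50 takes out. Setting library medians equal moved the folds the other way.

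**Figure D1:**
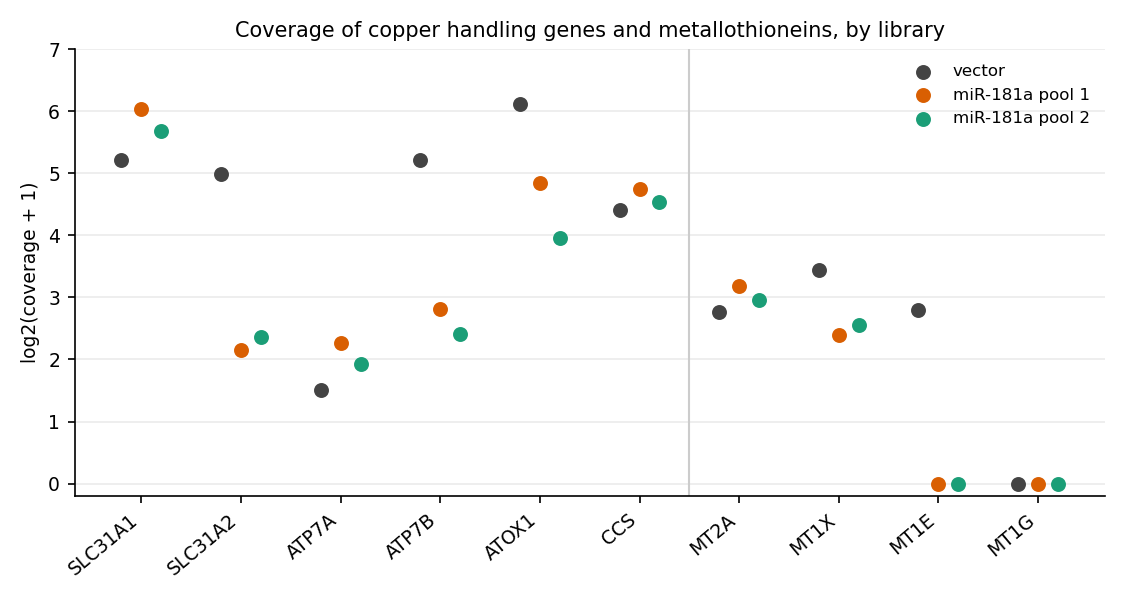
Coverage of the 10 genes in each library, as log2(coverage + 1), with 1 point per library, copper genes left of the line and metallothioneins right of it. SLC31A2, ATP7B and ATOX1 have the vector point far above both pools (30.9, 36.1 and 68.1), while MT1G is at 0 in all 3 libraries.

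The 2 members of the copper transporter family lay on opposite sides of the vector library. SLC31A1, the gene of the high-affinity copper importer CTR1 (NM_001859, chromosome 9, 115983824 to 116026772 on GRCh37, plus strand), stood at a coverage of 36.3 with the vector, 64.7 in pool 1 and 50.5 in pool 2. Both pools were above the vector library, by 0.82 and 0.47 log2 units. By limma the log2 fold of 0.64 (SE 0.27) did not pass (adjusted p = 0.259), and with the pools shifted by the median ratio of genes above 50 it was 0.26. It passed with library medians set equal (1.06, limma adjusted p = 8.273e-08) and with quantile normalization (0.78, limma adjusted p = 0.0186). Under these scalings 6355 and 4598 of all 12552 genes tested rose, which bears on ATP7A, CCS and MT2A below too. SLC31A1 had the highest mean coverage of the 10 genes and a pool mean above that of 90.3% of genes.

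SLC31A2, the gene of the related intracellular transporter CTR2 (NM_001860, chromosome 9, 115913256 to 115926420, plus strand), stood at a coverage of 30.9 with the vector, 3.47 in pool 1 and 4.15 in pool 2. The vector value was 8.11 times the pool mean, and the pools lay close together at 3.81 ± 0.49 (SD, n = 2). The log2 fold was -2.73 (SE 0.24, limma adjusted p = 0.0275). It passed the test in 11 of 11 alternatives that have one, with log2 folds from -3.11 to -1.57. All of these use the same vector library, and with the filter at the median SLC31A2 was tested only through its vector value. SLC31A2 has a single row, so its transcripts cannot be compared with each other. Of 2142 transcripts with a pool mean within 1.5 times that of SLC31A2, 5.51% had a vector value as high or higher, and their median vector value was 4.20.

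SLC31A2 and SLC31A1 lie in tandem, and FKBP15, which encodes an FK506-binding protein family member, lies between them on the opposite strand with its end over SLC31A2. Of the 1723 bases of the SLC31A2 transcript, 1582 (91.8%) lie under exons of FKBP15. The library protocol in the labels names no step that keeps strand, so without strand reads of SLC31A2 and FKBP15 cannot be told apart over most of this transcript, and the SLC31A2 values are uncertain. Coverage of FKBP15 was 28.8 with the vector, 11.1 in pool 1 and 9.44 in pool 2, so it too was lower in both pools, without passing (log2 fold -1.41, SE 0.30, limma adjusted p = 0.116). Its part in the SLC31A2 difference was not tested. Within a library a constant scaling factor cancels, though the effect of quantile normalization does not. SLC31A1 stood at 1.17 times the coverage of SLC31A2 in the vector library, 18.7 times in pool 1 and 12.2 times in pool 2.

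The exporters also lay on opposite sides of the vector library. ATP7A, the ATPase that exports copper from most cell types (NM_000052, chromosome X, 77166187 to 77305892, plus strand), was low in all libraries, with a coverage of 1.83 with the vector, 3.80 in pool 1 and 2.82 in pool 2. Both pools were above the vector library, but the log2 fold of 0.60 (SE 0.19) missed the threshold (limma adjusted p = 0.199). Its fold moved with the scale, from 0.22 with the shift by genes above 50 to 1.01 with library medians set equal (adjusted p = 0.0156) and 1.99 with quantile normalization (adjusted p = 0.00289).

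ATP7B, the ATPase known for loading copper into bile and ceruloplasmin in liver, and reported in platinum-resistant tumour cells (chromosome 13, 52504572 to 52586261, minus strand), has 2 rows in the table. The row tested, NM_001005918, stood at 36.1 with the vector, 5.999 in pool 1 and 4.33 in pool 2. The other, NM_000053, had 36.1, 5.52 and 4.28, so both rows gave nearly the same values in each library, and the vector library stood 6.99 and 7.37 times above the pool means. The log2 fold of the tested row was -2.60 (SE 0.34), just outside the threshold (limma adjusted p = 0.055). It passed in 6 of 11 alternatives that have a test, and it kept its direction in 11 of 11. All of these use the same vector library, and with the filter at the median ATP7B was tested only through its vector value. Of 2752 transcripts with a like pool mean, 4.69% had a vector value at or above that of ATP7B. ATP7B stood at 19.7 times the coverage of ATP7A in the vector library, but at 1.58 and 1.54 times in the pools.

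**Figure D2:**
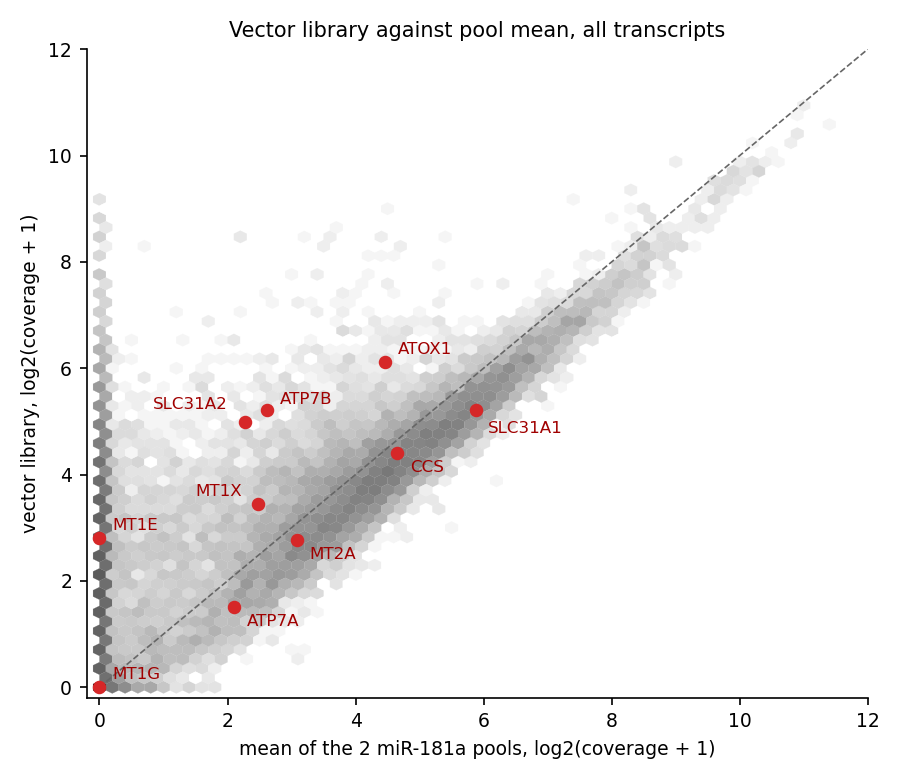
Coverage in the vector library against the mean of the 2 miR-181a pools for all 28848 transcripts used, both as log2(coverage + 1), with darker cells holding more transcripts, the dashed line marking equal values and the 10 genes in red. SLC31A1, CCS, MT2A and ATP7A lie in the dense band. SLC31A2, ATP7B and ATOX1 lie in the scatter above it, where transcripts have a vector value far over the pools. MT1X lies above the dashed line, but 23.7% of 2485 transcripts with a like pool mean had a vector value as high or higher.

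Of the chaperone genes, ATOX1 was lower in both pools, and the direction of CCS turned with the scaling. ATOX1, which delivers copper to the ATPases (NM_004045, chromosome 5, 151121877 to 151152093, minus strand), had the highest vector coverage of the 10 genes at 68.1, and 27.6 in pool 1 and 14.5 in pool 2. Both pools were below the vector library, and they lay further apart than for any other of these genes, by 0.89 log2 units. By limma the log2 fold of -1.72 (SE 0.56) did not pass (adjusted p = 0.199). It passed in 4 of 11 alternatives, among them the shift by genes above 50 (log2 fold -2.10) and the genes above 0 in both pools (limma adjusted p = 0.00173), an alternative added after seeing the data. Of 4425 transcripts with a like pool mean, 3.14% had a vector value as high or higher. ATOX1 has a single row, so its transcripts cannot be compared with each other.

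CCS, which delivers copper to the superoxide dismutase SOD1 (NM_005125, chromosome 11, 66360624 to 66373490, plus strand), stood at a coverage of 20.2 with the vector, 25.8 in pool 1 and 22.3 in pool 2. Its log2 fold was 0.24 (SE 0.26, limma adjusted p = 0.562), and it turned to -0.14 with the shift by genes above 50. It was 0.65 with library medians set equal, which passed (limma adjusted p = 0.00245), and 0.58 with quantile normalization, which did not (limma adjusted p = 0.0622). ATOX1 stood at 3.37 times the coverage of CCS in the vector library, 1.07 times in pool 1 and 0.65 times in pool 2.

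MT2A and MT1X had low coverage in all libraries, and most other metallothionein genes were listed at 0 in both pools, of which MT1H, MT1E, MT3 and MT1A were above 0 in the vector library. MT2A, the metallothionein gene usually most abundant in human cells (NM_005953, chromosome 16, 56642496 to 56643409, plus strand), stood at a coverage of 5.78 with the vector, 8.13 in pool 1 and 6.82 in pool 2. Both pools were slightly above the vector library, by a log2 fold of 0.32 that did not pass (SE 0.22, limma adjusted p = 0.4), and the sign turned to -0.06 with the shift by genes above 50, while the fold was 2.00 with quantile normalization (adjusted p = 0.0101). MT1X (NM_005952, chromosome 16, 56716382 to 56718108, plus strand) lay the other way, with 9.90 with the vector, 4.29 in pool 1 and 4.87 in pool 2. By limma its log2 fold of -0.97 (SE 0.16) did not pass (adjusted p = 0.0792). It was -0.01 with quantile normalization and -1.35, which passed, with the shift by genes above 50. MT2A stood at 0.58 times the coverage of MT1X in the vector library and at 1.90 and 1.40 times in the pools.

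MT1E (NM_175617, chromosome 16, 56659387 to 56661024) was listed at 5.99 in the vector library and at 0 in both pools, and MT1G (NM_005950, chromosome 16, 56700642 to 56701977) was listed at 0 in all 3 libraries. The log2 fold of MT1E was -2.81 in each pool, but a gene at 0 in both pools enters a test only through its vector value, and 24.8% of the 8822 transcripts at 0 in both pools had a vector value at or above 5.99. The windowed median gives 0 unless at least 50% of the windows of a transcript hold reads, so a 0 is a listed value and not a measured absence. GPX1, a peroxidase gene active in most cells, was listed at 0.34, 0.12 and 0. Metallothionein genes are close relatives, and reads can be split among them where the mapping allows mismatches. No stretch of 100 bases, the read length in the labels, was shared exactly between the transcripts of these 4 genes and other metallothionein genes. In MT1X, 67 of 305 such stretches (22.0%) were shared with ENSG00000259827, another annotated RNA, in a search of both strands.

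The order of the levels within the pools was led by SLC31A1 at 57.6 ± 10.0 (SD, n = 2). CCS at 24.1 ± 2.48 (SD, n = 2) and ATOX1 at 21.1 ± 9.30 (SD, n = 2) followed, and their values overlapped between the pools. MT2A came next at 7.47 ± 0.93 (SD, n = 2), above ATP7B at 5.16 ± 1.18 and MT1X at 4.58 ± 0.41 (SD, n = 2), and the values of the last 2 overlapped. SLC31A2 and ATP7A, at 3.81 ± 0.49 and 3.31 ± 0.69 (SD, n = 2), overlapped as well. In the vector library the order was ATOX1, SLC31A1, ATP7B, SLC31A2, CCS, MT1X, MT1E, MT2A and ATP7A.

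By their 2 log2 folds, the genes nearest to SLC31A1, among 2185 genes with a mean coverage above 50, were VDAC1, SRRM2 and DDR2, with folds in pool 1 of 0.82, 0.82 and 0.84. The likeness rests on 2 differences from 1 shared vector library, and 136 genes lay within 0.1 log2 units of SLC31A1 in both folds.

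**Figure D3:**
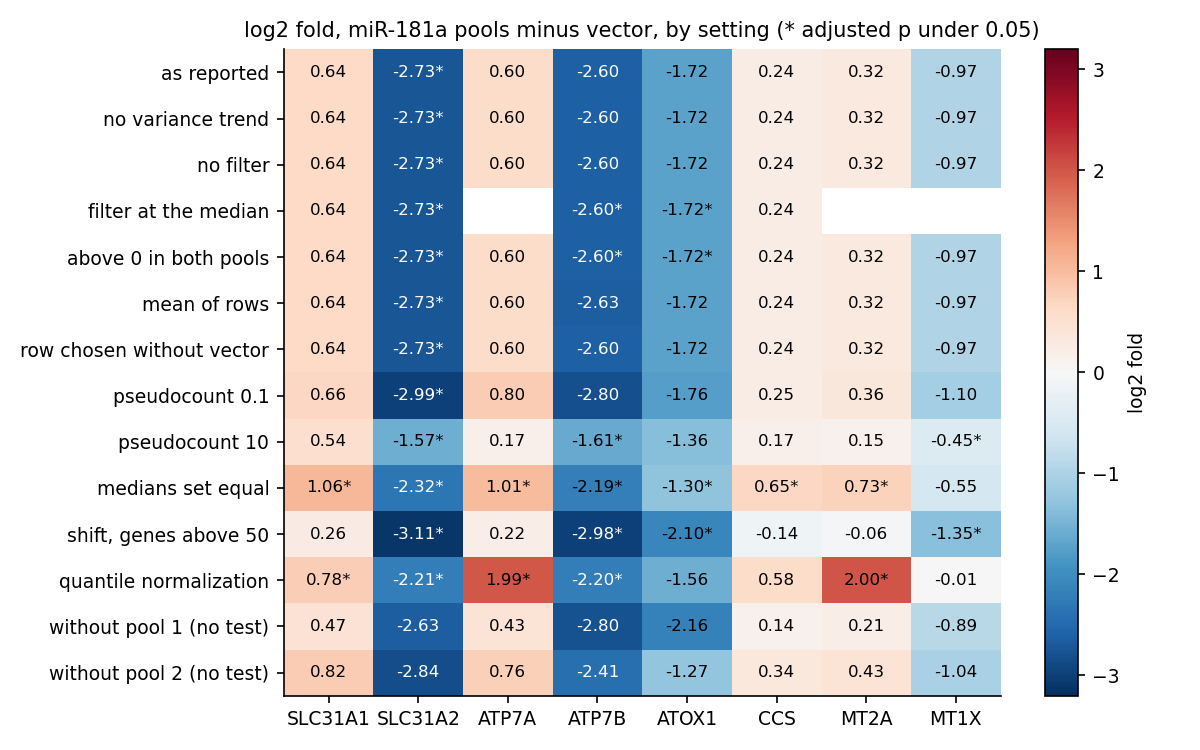
Log2 fold of the 8 tested genes, miR-181a pools minus vector, as reported and under each alternative, with an asterisk where the limma adjusted p was under 0.05 and blank cells where a gene was not tested. SLC31A2, ATP7B and ATOX1 are below 0 in every row, SLC31A1 and ATP7A are above 0 in every row in which they appear, and CCS and MT2A turn below 0 with the shift by genes above 50.

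Of 27 other copper genes listed, 24 were tested, 4 fell and none rose, 6 were higher and 9 lower in both pools, and the median log2 fold was -0.07. Among all 12552 genes tested 21.7% fell, 1.00% rose, 44.6% were higher and 41.8% lower in both pools, and their median was 0.07. The 4 past the test stood at 0 in each pool: the ferroxidase gene HEPH at 48.9 in the vector library, the extracellular superoxide dismutase gene SOD3 at 26.1, DBH, which makes noradrenaline, at 8.33 and TYR, which makes melanin, at 7.91. The filter fixed these falls, and the 2 other rows of HEPH had vector values of 0.12 and 1.21. SOD1, the main client of CCS, was at 475 with the vector and 698 ± 116 with miR-181a (SD, n = 2), which did not pass (log2 fold 0.54, limma adjusted p = 0.348). The copper-binding precursor gene APP was at 186 and 367 ± 56.1 (SD, n = 2, log2 fold 0.97, limma adjusted p = 0.165). CUTA stood at 70.1, 64.3 and 77.3 in the row tested. Its 5 rows differed in direction, with 48.0, 64.1 and 78.1 in one and 62.4, 40.7 and 47.8 in another.

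Among genes of metal regulation, MTF1 fell. MTF1, the zinc-sensing factor that induces metallothioneins, stood at 21.6 with the vector, 4.23 in pool 1 and 4.31 in pool 2 (log2 fold -2.10, SE 0.20, limma adjusted p = 0.0305). It has a single row, so its vector value cannot be compared between transcripts. MT1H, another metallothionein gene, fell in the test from 175 in the vector library to 0 in both pools, a fall that the filter fixed. Of the other metallothioneins in the table, MT1A and MT3 had vector values of 0.93 and 3.54 and were at 0 in both pools, MT1F was at 0.43, 0.43 and 0, and MT1B, MT1M and MT4 were at 0 in all 3 libraries. With the zinc transporters, 13 genes of this list were tested, 2 fell, none rose, 8 were higher and 5 lower in both pools, and the median log2 fold was 0.30. Beside these 2 of 13 that fell and 8 of 13 that were higher stand 21.7% and 44.6% of all genes. The zinc importer genes SLC39A1 and SLC39A3 were at 139 and 50.2 in the vector library and at 219 ± 83.8 and 80.1 ± 22.6 (SD, n = 2) in the pools, and SLC39A7, a zinc transporter of the endoplasmic reticulum and Golgi, at 110 and 204 ± 15.8 (SD, n = 2), and none of these passed the test.

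Of 12 genes listed for other routes of platinum transport, 8 were tested, 2 fell, none rose, 3 were higher and 5 lower in both pools, and the median log2 fold was -1.50. Among all genes 21.7% fell and 41.8% were lower in both pools, near the 2 of 8 that fell here and below the 5 of 8 that were lower. The 2 that fell were the organic cation transporter gene SLC22A3 (28.6 in the vector library) and the efflux pump gene ABCC2 (20.7), both at 0 in the pools and so tested only through the vector value. LRRC8D, a subunit of the volume-regulated anion channel through which cisplatin can enter, was 36.3 with the vector, 8.12 in pool 1 and 7.22 in pool 2 and did not pass the test (log2 fold -2.11, SE 0.29, limma adjusted p = 0.0575). LRRC8A, the obligatory subunit of that channel, was 13.7, 19.0 and 15.4. TMEM205, a membrane protein linked to cisplatin resistance, was at 37.5 in the vector library and 74.9 ± 9.68 (SD, n = 2, log2 fold 0.97, limma adjusted p = 0.135).

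Glutathione binds platinum and copper, and of 20 genes of its synthesis and use 17 were tested, 2 fell, none rose, 11 lay higher and 4 lower in both pools, and their median log2 fold was 0.58. Over all genes 21.7% fell, 44.6% were higher and 41.8% lower in both pools. GCLC, the catalytic subunit of the enzyme that limits glutathione synthesis, fell from 435 to 13.3 ± 0.46 (SD, n = 2, log2 fold -4.93, limma adjusted p = 0.00533), while its partner GCLM was at 10.0, 12.96 and 9.57. The vector value of GCLC rests on a single row and cannot be compared between transcripts. GGT1, which breaks down glutathione outside the cell, fell from 349 to 3.38 ± 0.63 (SD, n = 2, log2 fold -6.33, limma adjusted p = 0.00874). Its 4 rows were equal in each pool, at 3.83 and 2.94, but had vector values of 349 in 2 rows and 209 and 37.1 in the others. GSTP1, the main glutathione transferase of many tumours, was level at 263, 266 and 238, and GPX4, which reduces lipid peroxides, was at 117 and 156 ± 51.2 (SD, n = 2), which did not pass.

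**Figure D4:**
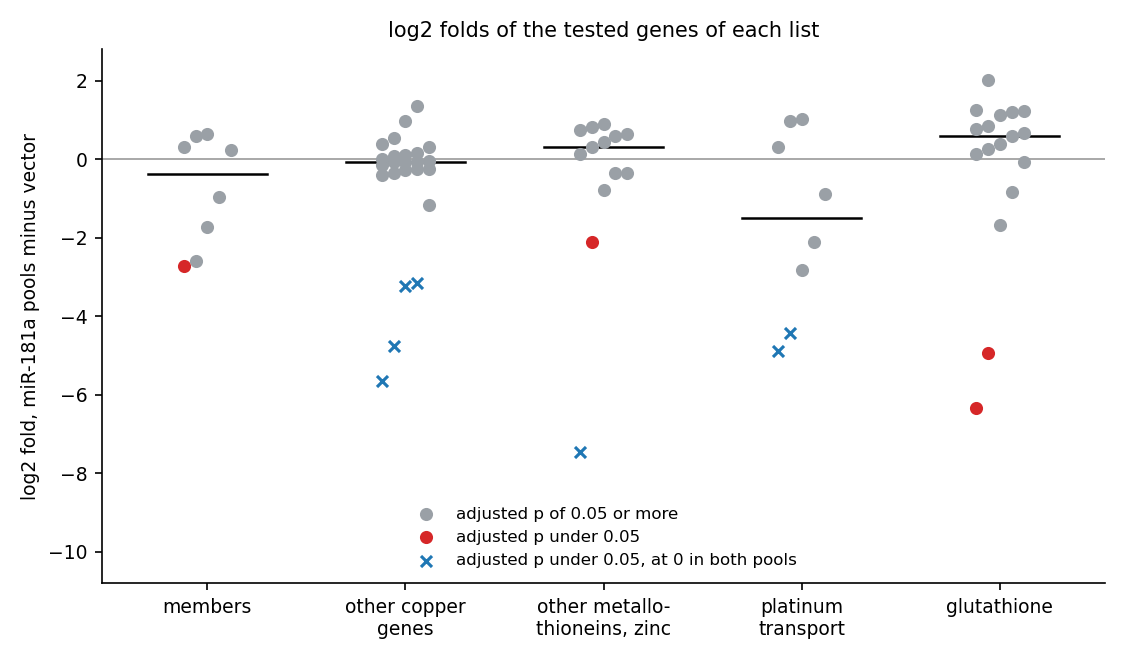
Log2 folds of the tested genes in each list, miR-181a pools minus vector, with 1 point per gene, the bar at the list median, red points for genes with a limma adjusted p under 0.05 and crosses for those also listed at 0 in both pools. All crosses and red points lie below 0, and no gene of any of the lists rose.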

How the data were processed

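Total RNA of A2780 cells, 1 vector library and 2 miR-181a libraries, was enriched for poly-A RNA and sequenced on an Illumina instrument in reads of 100 bases. Per the labels' protocols, the authors aligned to hg19 and summarised each transcript by the median density of 50 bp windows slid along it, which is the deposited coverage signal. Aligner and annotation release: not given in the sources used here. A log transformation and quantile normalization are also named there, but the deposited coverage signal is linear and its quantiles differ between libraries, so no common scale was assumed.

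Of 29156 rows, 308 had a blank vector value and were left out, none of them a member. Symbols turned into dates were restored by accession in 52 rows. The row of highest mean was used per gene, and the 25% of genes with the lowest mean, leaving aside genes at 0 throughout, were not tested (12552 remained). Values were log2(coverage + 1), tested with limma 3.58.1 in R 4.3.3 (eBayes with trend, Benjamini-Hochberg over all genes, threshold 0.05). The only residual degree of freedom is between the pools, and the single vector library is taken to vary like them. The fit was tested on simulated data in which the vector library had the means and spread of the pools, apart from genes changed on purpose. That test cannot speak to the ways in which the real vector library stands apart. Tables were made with pandas 2.3.3 in Python 3.11.15. The depth is unknown, so no counting interval is given. Alternatives covered the filter, scaling, pseudocount, row, variance model and each pool left out.

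The members and lists were chosen with earlier results of these data known. Named were all members and, from each list, up to 4 genes past the test and the 3 of highest mean coverage, and for likeness the 3 genes nearest by fold to the member of highest coverage. Other genes, such as FKBP15, GPX1, GCLM, HEPH rows and metallothioneins at 0, were named after their values were seen. UTRs and positions are from GENCODE lifted to GRCh37, the assembly of hg19. Promoter windows matched 7 of the 10 members.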

Additional observations from a re-analysis of the deposited data

How the results depend on the processing

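Without pool 1 or pool 2 no test was left. The log2 folds of all 8 tested members kept their direction, which was fixed because each lay on the same side in both pools. The sole vector library could not be left out. No paired analysis was possible because the vector group has 1 library. Genes that rose numbered 126 as reported, 278 with no filter, 402 with a filter at the median, 6355 with medians set equal, 1039 with the shift by genes above 50, 4598 with quantile normalization and 447 among genes above 0 in both pools, an alternative chosen after seeing the data. Genes that fell numbered 2725 as reported, 5626 with no filter, 1476 with a filter at the median and 5390 with the shift. Of the 12552 genes tested, 3701 fell with medians set equal, 3012 with quantile normalization and 2965 with a pseudocount of 10. Among genes above 0 in both pools 1823 fell. Members that rose went from 0 to 4 with medians set equal and 3 with quantile normalization. Members that fell went from 1 to 2 with no filter (MT1E enters) and with quantile normalization, to 3 with medians set equal, the filter at the median, a pseudocount of 10 and genes above 0 in both pools, and to 4 with the shift. Members higher in both pools went from 4 to 2 with the filter at the median, which leaves 5 members tested, and with the shift. Of these 5, SLC31A2 and ATP7B passed that filter only through their vector values. The median log2 fold of the members, -0.37, reversed to 0.051 with medians set equal and 0.29 with quantile normalization, and was -1.72 with the filter at the median, -0.97 with no filter, -0.75 with the shift, -0.43 with a pseudocount of 0.1 and -0.15 with one of 10. CCS and MT2A reversed to -0.14 and -0.063 with the shift. Beyond the changes in the number of genes tested, the cause was not tested. Depth is unknown, and genes near 0 are limited by the windowed median.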

Other observations

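Of the 17 glutathione genes tested, 3 were at least 1 log2 unit higher in both pools, a size that 2.53% of all tested genes reached, and these were picked out after their values were seen. GSTM1, a glutathione transferase gene, was at 3.85 in the vector library and at 18.6 and 18.5 in the pools (log2 fold 2.01, SE 0.27, limma adjusted p = 0.0556). Its other row had 5.62, 16.7 and 15.0, and both rows are uncertain because the GSTM genes are close relatives. GSTO1, an omega-class transferase gene, was at 34.3, 86.0 and 79.2 (log2 fold 1.24, SE 0.18, limma adjusted p = 0.0661). MGST3, a microsomal transferase gene, was at 15.5, 38.7 and 37.0 (log2 fold 1.23, SE 0.21, limma adjusted p = 0.0844). None of the 3 passed the test. That each was higher in both pools was fixed by how they were picked, and both folds share the same vector library.

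SLC39A6, a zinc importer gene, has no vector value in either of its 2 rows and entered no comparison. Its coverage was 56.8 in pool 1 and 51.7 in pool 2 in one row and 48.2 and 47.0 in the other.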
